A study of Mus musculus with 4 samples.

Results

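The genes described here act in repressive chromatin: the DNA methyltransferases Dnmt1, Dnmt3a, Dnmt3b and Dnmt3l, the Polycomb proteins Ezh2, Eed and Phc1, and the histone deacetylases Hdac1 and Hdac2. They were followed from mouse embryonic stem (ES) cells to neurospheres on Affymetrix MG_U74Av2 expression arrays. All probe sets that the platform annotation pairs with exactly 1 of these 9 genes were taken. This gave 9 probe sets for 7 genes, out of 12422 probe sets for 8251 genes in the whole table. Dnmt3b and Dnmt3l were paired with no probe set in the annotation used and were not analysed here.

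The study held 4 arrays, each hybridised with total RNA prepared with RNeasy. The labels put 3 arrays in R1, an established mouse ES cell line, and all 3 R1 cultures were kept in DMEM with LIF and beta-mercaptoethanol, LIF being a cytokine that holds such cells undifferentiated. Both embryoid body arrays came from R1 cells kept unattached for 48 hours with LIF, and their titles call 1 of them aggregation and the other suspension. The adherent array came from R1 cells on gelatin under conditions for undifferentiated growth. The remaining array came from neurospheres, which are floating cell clusters rich in neural progenitors, taken from the E13.5 mouse telencephalon and grown in an F12 medium with FGF2. The labels list astrocytes, glia and oligodendrocytes as cells that contaminate the neurospheres, and they give neither a strain nor the number of embryos. In the labels 1 sample identifier covers both embryoid body arrays, and nothing there says that the cultures were separate, so they may be repeat arrays of 1 sample. In the fit of 3 groups, p-values rest on how far these 2 arrays lie apart. Whether that distance is technical or lies in the culture form named by each title cannot be told apart. The adherent and neurosphere groups had 1 array each, and their spread was taken to be that of the embryoid body arrays.

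DNA methyltransferases place methyl groups on cytosines of CpG dinucleotides. Dnmt1 copies the pattern onto new strands at replication, and Dnmt3a and Dnmt3b place new marks, with Dnmt3l as a partner that has no catalytic activity of its own. Polycomb repressive complex 2 (PRC2) methylates lysine 27 of histone H3 through its enzyme Ezh2 and its essential subunit Eed, and complex 1 (PRC1), to which Phc1 belongs, ubiquitinates histone H2A and compacts chromatin. Hdac1 and Hdac2 remove acetyl groups from histones as the paired catalytic subunits of the Sin3, NuRD and CoREST complexes.

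Promoters of genes under these systems are often described by their CpG content. The 250 bases before the annotated start are shown for Phc1 and Eed, which had the largest differences between neurospheres and R1 cells. They are also shown for Ezh2 and Hdac2, which did not pass the test. Ezh2 is in PRC2 with Eed, and Hdac2 is the relative of Hdac1, which had no promoter sequence in the source used. The 4 genes shown were picked after their values were seen. The sequences are from RefSeq on GRCm38.p6, written 5′ to 3′ on the gene's strand, and capitals mark each CG dinucleotide. Phc1 lies at chr6:122340228-122340477 on the minus strand, Eed at chr7:89980977-89981226 on the minus strand, Ezh2 at chr6:47595031-47595280 on the minus strand and Hdac2 at chr10:36974294-36974543 on the plus strand.
Phc1: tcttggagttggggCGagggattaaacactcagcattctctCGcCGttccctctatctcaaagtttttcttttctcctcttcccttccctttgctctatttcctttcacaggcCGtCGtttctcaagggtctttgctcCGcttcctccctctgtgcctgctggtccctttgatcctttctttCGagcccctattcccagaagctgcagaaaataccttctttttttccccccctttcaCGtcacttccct
Eed: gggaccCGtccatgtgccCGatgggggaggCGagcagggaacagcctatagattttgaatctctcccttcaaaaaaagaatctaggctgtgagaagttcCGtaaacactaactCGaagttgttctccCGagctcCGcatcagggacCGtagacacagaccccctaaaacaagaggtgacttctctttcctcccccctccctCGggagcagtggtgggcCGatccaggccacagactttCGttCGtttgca
Ezh2: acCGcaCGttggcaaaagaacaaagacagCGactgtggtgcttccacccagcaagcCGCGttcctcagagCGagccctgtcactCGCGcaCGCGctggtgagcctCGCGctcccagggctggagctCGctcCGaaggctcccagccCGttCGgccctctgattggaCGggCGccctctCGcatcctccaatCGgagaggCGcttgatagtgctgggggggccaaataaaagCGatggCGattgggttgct
Hdac2: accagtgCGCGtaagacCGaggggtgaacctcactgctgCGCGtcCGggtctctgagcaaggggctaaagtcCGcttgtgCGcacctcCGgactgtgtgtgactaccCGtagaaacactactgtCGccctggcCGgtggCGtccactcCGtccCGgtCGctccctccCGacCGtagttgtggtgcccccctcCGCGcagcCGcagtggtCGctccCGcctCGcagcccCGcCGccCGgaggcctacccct
The Phc1 window held 8 CG dinucleotides, and 43.0% of 32851 mouse promoter windows of this length held at least as many. The Eed window held 12, a number reached by 33.5% of windows. The Ezh2 window held 23, reached by 13.3%, and the Hdac2 window 27, reached by 8.56%. The median window held 6. Dnmt1, also called lower in neurospheres, has 3 annotated starts in the table, whose windows held 26, 7 and 2. Dnmt3a, which did not pass the test, also has several starts, with windows that held 38, 40 and 15. These counts describe the DNA letters alone, and methylation was not measured on these arrays.

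The values below are MAS5 signals scaled so that every array had the same trimmed mean of 500, and differences are on the log2(signal + 32) scale, which understates changes of weak probe sets. The deposited signals differed 45.6-fold between the suspension and aggregation arrays and 50.4-fold between the suspension and neurosphere arrays before scaling. The adherent array was on the scale of the suspension array, with deposited trimmed means of 1490 and 1485, against 32.5 for aggregation and 29.5 for neurospheres. The 2 embryoid body arrays, whose distance sets the spread, were thus deposited on unlike scales. What set the scales apart is not given in the sources used. The arrays were scanned on 1 day, per the file headers. A probe set was tested when it reached the array median, 178 to 242 in scaled signal, on at least 1 array, and 8031 were tested. Adjusted p-values are from limma with Benjamini-Hochberg adjustment over those 8031, and "called" means an adjusted p under 0.05. The labelled cell types were checked against markers, with the brightest probe set of each gene summed. The sum of 8 pluripotency genes was between 58876 and 68528 on the R1 arrays and 1856 in neurospheres, and that of 6 neural progenitor genes was between 374 and 712 on the R1 arrays and 62221 in neurospheres. Of the tested probe sets, 9 of 10 of pluripotency genes were called lower in neurospheres and 7 of 8 of progenitor genes higher, with none called the other way. Among the tested progenitor probe sets, only that of Nes reached the array median on an R1 array. The others were tested through the neurosphere array alone, where they were high, so they could not be called lower. Likewise, pluripotency probe sets of Dppa5a, Nanog, Nr0b1, Zfp42 and Pou5f1 were tested through R1 arrays alone. On the brightest probe set of each gene, the ES cell factors Pou5f1 and Zfp42 were at 51.3 and 154 in neurospheres, and the progenitor genes Fabp7 and Nes at 41867 and 3945. A second, weak Pou5f1 probe set was at 277 in neurospheres and at most 262 in R1 cells, and was not called. The 6 astrocyte genes summed to 6456 in neurospheres against 479 to 1315 in R1 cells, with 2 of 5 tested probe sets called higher, and 5 oligodendrocyte lineage genes to 3099 against 717 to 1652, with 3 of 6 called higher. Neither list had a probe set called lower. Of the tested astrocyte probe sets, only that of Aldoc reached the array median on an R1 array, so the others could not be called lower. Of the 3 calls in the oligodendrocyte lineage, those of Nkx2-2 and Pdgfra also came from probe sets tested through the neurosphere array alone. The brightest Gfap probe set, of astrocytes, was at 384 in neurospheres and was not called, and that of Sox10, of the oligodendrocyte lineage, was at 1210 and called higher, while a weaker probe set of each was not tested and was not highest in neurospheres. The 7 neuronal genes summed to 7911 against 4952 to 6771, most of it from 1 probe set of Tubb3 at 5991 that was not called. Of the 7 tested neuronal probe sets, 1 was called higher and 3 lower, the last being 2 of Stmn2 and another of Tubb3. Trophoblast genes had 2 of 2 tested probe sets called lower and primitive endoderm genes 1 of 2. Microglia genes had 1 of 3 called higher and 1 lower, and fibroblast (feeder) genes 0 of 4 called. The 5 fibroblast genes summed to 4379 and 4131 on the aggregation and suspension arrays, 1643 in adherent cells and 3168 in neurospheres. The part of these other cell types in the differences below was not tested, and in RNA from whole cultures fewer cells of a type and less RNA per cell cannot be told apart.

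Neurospheres had less RNA of Phc1, Eed, Hdac1 and Dnmt1 than R1 ES cells. Phc1 showed a 15.2-fold difference, Eed 8.31-fold, Hdac1 4.29-fold and Dnmt1 1.81-fold, each against the mean of the embryoid body and adherent groups. Ezh2, Hdac2 and Dnmt3a did not pass the test. Of the 7 tested member probe sets, 4 were called lower and 0 higher in neurospheres. Over all tested probe sets, 11.6% were called lower and 8.09% higher. The median difference of the 7 was -0.86, beside 0.10 for all tested probe sets. With arrays scaled to one median in place of one trimmed mean, the calls over all tested probe sets went from 650 higher and 935 lower to 526 higher and 1380 lower, and the median of all went from 0.10 to -0.13. The 4 member calls kept their direction and their side of the threshold under that scaling.

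**Figure D1:**
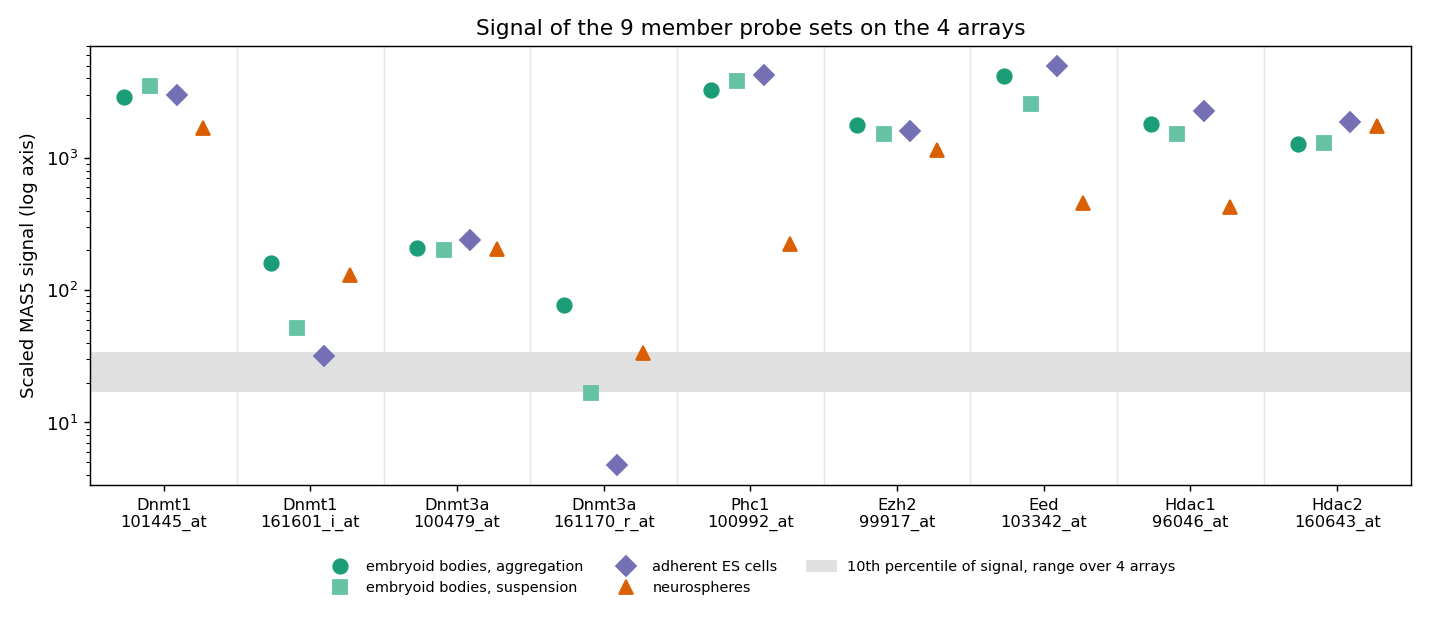
Scaled MAS5 signal (log axis) of the 9 member probe sets, 1 point per array, with circles and squares for the embryoid body arrays, diamonds for adherent ES cells and triangles for neurospheres. The grey band is the range of the 10th percentile over the 4 arrays, and the neurosphere points of Phc1, Eed and Hdac1 lie well below all R1 points while those of Hdac2 lie among them.

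Dnmt1, the maintenance methyltransferase, had signals of 2886 on the aggregation array, 3491 on the suspension array, 3013 in adherent ES cells and 1693 in neurospheres. The neurosphere value was the lowest, below all 3 R1 values, which lay close together. The difference was -0.86 ± 0.28 (SE) on the log2 scale, with a 95% interval from -1.44 to -0.28 and an adjusted p of 0.0333 in limma. The Dnmt1 call was fragile: it ended in 7 of 14 alternative settings, among them variances fitted without an intensity trend (adjusted p = 0.244), no filter on low signal (adjusted p = 0.0749) and quantile normalization (adjusted p = 0.0694). It also ended when the aggregation array was left out (-0.92) and when the suspension array was (-0.79). Those fits also merge the adherent array with the remaining embryoid body array, and their SEs were 0.50 and 0.46 in place of 0.28. A call that ended there can therefore have ended through the changed groups. The same holds for every call below that ended without an embryoid body array. The difference stayed between -1.12 and -0.75 over the 14 settings. A further Dnmt1 probe set was below the array median on all 4 arrays and was not tested, with signals of 160 on the aggregation array, 51.6 on the suspension array and 129 in neurospheres, and its lowest signal in adherent cells.

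Dnmt3a, a de novo methyltransferase, had signals of 209, 201, 241 and 205 on the aggregation, suspension, adherent and neurosphere arrays. The neurosphere value lay within the R1 values. The log2 difference was -0.10 ± 0.66 (SE), with a 95% interval from -1.47 to 1.27 and an adjusted p of 0.931 in limma, so a change of more than 2-fold in either direction lies inside the interval. This probe set passed the signal filter through the adherent array alone. Its other probe set had signals of 76.9, 16.8, 4.75 and 33.3 in the same order and was not tested, so Dnmt3a was measured at low signal throughout.

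The 3 Polycomb genes differed in the size of their change. Ezh2, the PRC2 methyltransferase, had signals of 1788 on the aggregation array, 1527 on the suspension array, 1613 in adherent ES cells and 1149 in neurospheres. The neurosphere value was below all R1 values, by 1.33-fold to 1.56-fold in signal. The log2 difference was -0.49 ± 0.31 (SE), from -1.14 to 0.15, and did not pass the test (limma, adjusted p = 0.284). Under the 14 alternatives it stayed between -0.75 and -0.42 and was not called in any of them.

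Eed, the PRC2 subunit that binds the methylated histone and is needed for the activity of the complex, had signals of 4197 on the aggregation array, 2554 on the suspension array, 4968 in adherent ES cells and 457 in neurospheres. The neurosphere value lay far below all 3 R1 values, although the embryoid body arrays themselves were 1.64-fold apart. The difference was -3.05 ± 0.31 (SE) on the log2 scale, from -3.70 to -2.41 (limma, adjusted p = 2.27e-07), the 112th largest fall of 8031. It was called in all 14 alternatives, between -3.35 and -2.76.

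Phc1, the mouse polyhomeotic homologue of PRC1, had signals of 3292 on the aggregation array, 3823 on the suspension array, 4246 in adherent ES cells and 225 in neurospheres. Its neurosphere signal was below the median of that array, 242. The R1 values lay within a narrow range and the neurosphere value stood below each of them, by 14.6-fold, 17.0-fold and 18.9-fold in signal. The log2 difference was -3.93 ± 0.29 (SE), from -4.54 to -3.32 (limma, adjusted p = 1.56e-09). It ranked as the 51st largest fall of all tested probe sets and was called in all 14 alternatives, between -4.27 and -3.61.

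Hdac1 had signals of 1797 on the aggregation array, 1515 on the suspension array, 2262 in adherent ES cells and 426 in neurospheres. The neurosphere value was below every R1 value, by 3.55-fold at least. The log2 difference was -2.10 ± 0.32 (SE), from -2.77 to -1.43 (limma, adjusted p = 5.05e-05). The Hdac1 call ended in 1 of 14 alternatives, the fit without an intensity trend (adjusted p = 0.0549), and the difference stayed between -2.40 and -1.88.

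Hdac2, the close relative of Hdac1 in the same complexes, had signals of 1270 on the aggregation array, 1293 on the suspension array, 1869 in adherent ES cells and 1743 in neurospheres. The neurosphere value lay above both embryoid body arrays and below the adherent array. The log2 difference was 0.17 ± 0.31 (SE), from -0.47 to 0.80 (limma, adjusted p = 0.739). Its direction depended on the setting: it was 0.43 against embryoid bodies alone, -0.10 against the adherent array alone and -0.08 with arrays scaled to one median.

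**Figure D2:**
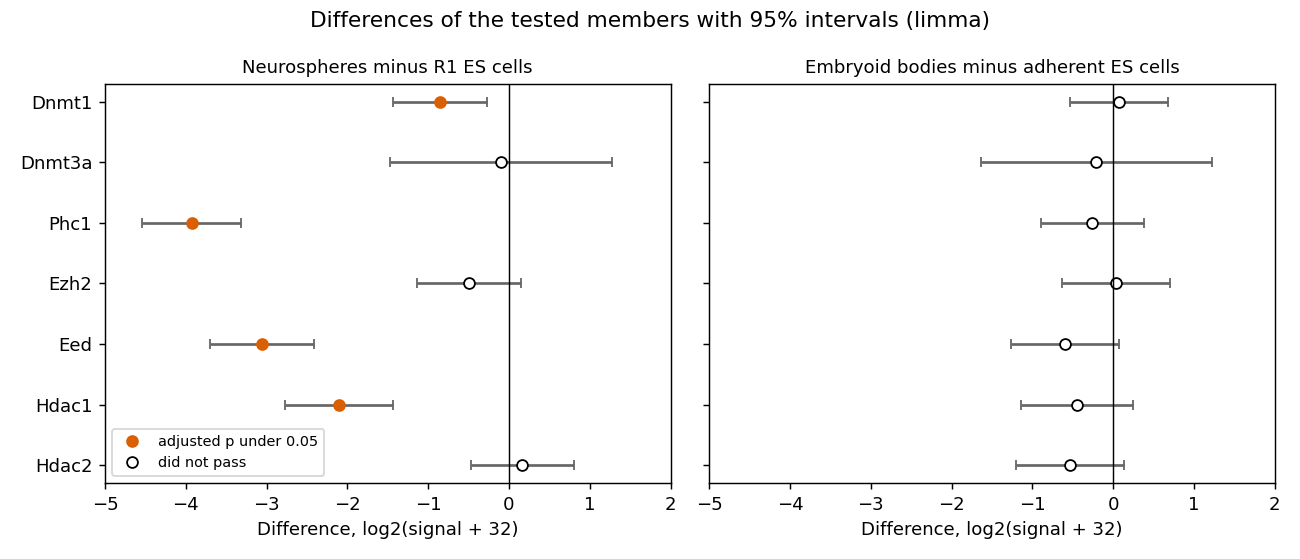
Differences of the 7 tested member probe sets on the log2(signal + 32) scale with 95% intervals from limma, for neurospheres minus R1 ES cells (left) and embryoid bodies minus adherent ES cells (right). Filled points passed an adjusted p of 0.05: Phc1, Eed, Hdac1 and Dnmt1 on the left and none on the right.

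Ratios of members on the same array do not depend on the factor by which that array is scaled. They can change under quantile normalization, where the Dnmt1 difference went from -0.86 to -0.75 and that of Dnmt3a from -0.10 to -0.32. The pairs below were chosen after the values were seen, and no test was made on them. Most set a called member against an uncalled one, so unequal change in them partly restates that choice. The signal ratio of Hdac1 to Hdac2 was lower in neurospheres than on the aggregation, suspension and adherent arrays by 5.79-fold, 4.79-fold and 4.95-fold. The Eed to Ezh2 ratio was lower by 5.90-fold, 4.20-fold and 7.74-fold, so these PRC2 subunits changed unequally against every R1 array. For Phc1 to Ezh2 the ratio was lower by 9.40-fold, 12.8-fold and 13.4-fold. The Dnmt1 to Dnmt3a ratio was lower by 1.67-fold, 2.10-fold and 1.51-fold, with Dnmt3a measured at low signal. For Hdac1 to Dnmt1, both called, the ratio was lower by 2.47-fold, 1.72-fold and 2.98-fold. Ezh2 to Dnmt1 went the other way: the R1 ratios were 0.913, 0.645 and 0.789 times that in neurospheres.

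Without any test, 5 of the 7 tested member probe sets were below all 3 R1 arrays in neurospheres, and 32.1% of all tested probe sets were. By a fold of at least 2 against each R1 array, 3 of the 7 were lower and 0 higher, as were 11.1% and 10.4% of all tested probe sets. None of the 7 was above all 3 R1 arrays, where 34.8% of all tested probe sets were. The 5 were Dnmt1, Ezh2, Eed, Phc1 and Hdac1, and the 3 past the fold were Eed, Phc1 and Hdac1.

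Embryoid bodies were compared with adherent ES cells to ask whether 48 hours without attachment, with LIF kept in the medium, went with other levels of these genes. No difference was called. Of the 7 tested member probe sets, 0 were called lower and 0 higher in limma, and 0 had an unadjusted p under 0.05 in either direction. Over all tested probe sets 0.0872% were called lower and 0.261% higher, so calls were rare everywhere in this comparison. With arrays scaled to one median, the calls over all tested probe sets went from 21 higher and 7 lower to 41 higher and 386 lower, the median of all went from 0.10 to -0.26, and none of the 7 was called. Under that scaling all 7 differences were negative, so the directions given below for Dnmt1 and Ezh2 turn with it.

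The intervals show what these 3 arrays could resolve. Eed was at -0.60 ± 0.32 (SE) on the log2 scale with a 95% interval from -1.27 to 0.08 (limma, adjusted p = 0.426). The Eed value moved to -0.95 when aggregation was left out, to -0.24 when suspension was left out and to -0.97 with arrays scaled to one median (adjusted p = 0.0553). Its embryoid body signals of 4197 and 2554 were both below the adherent 4968. Hdac2 was at -0.53, from -1.20 to 0.13, and Hdac1 at -0.45, from -1.15 to 0.25. Both embryoid body arrays lay below the adherent array for these genes too.

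Phc1 was at -0.26, from -0.89 to 0.38, and Dnmt3a at -0.21, from -1.64 to 1.23. Dnmt1 was at 0.07, from -0.53 to 0.68, and Ezh2 at 0.03, from -0.64 to 0.71. With arrays scaled to one median these were -0.29 and -0.33, and leaving out the suspension array put Dnmt1 at -0.06, as leaving out the aggregation array put Ezh2 at -0.08. For Dnmt1 and Ezh2 the adherent signal lay between those of the embryoid body arrays. Both embryoid body arrays were below the adherent array for 5 of the 7 tested member probe sets and for 32.3% of all tested probe sets, and above it for 0 of the 7 and for 42.2% of all. Between the embryoid body arrays themselves, Eed was the only tested member at least 1.5-fold apart, as were 37.1% of all tested probe sets, and the smallest gap was that of Hdac2, with 1270 and 1293.

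Other genes of the same machinery were described from 8 lists of 127 genes, of which 76 had a probe set and 64 a tested one. In neurospheres 24 of their 85 tested probe sets were called lower and 3 higher, against the 11.6% and 8.09% of all tested probe sets given above. The 24 became 14 without the suspension array and 7 in the fit without an intensity trend. Between embryoid bodies and adherent ES cells 0 of the 85 were called, and the unadjusted p from limma was under 0.05 for 1 higher and 10 lower, where 13.7% of all tested probe sets had such a p in either direction. With arrays scaled to one median, 9 of the list probe sets were called lower, among them those of Gadd45a, Hells, Rbbp4, Rbbp7, Kdm6a and Rest. Of the 27 calls, 9 were kept in all alternatives in which the probe set was tested, 7 ended only in the fit without an intensity trend, and 11 ended in others too.

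**Figure D3:**
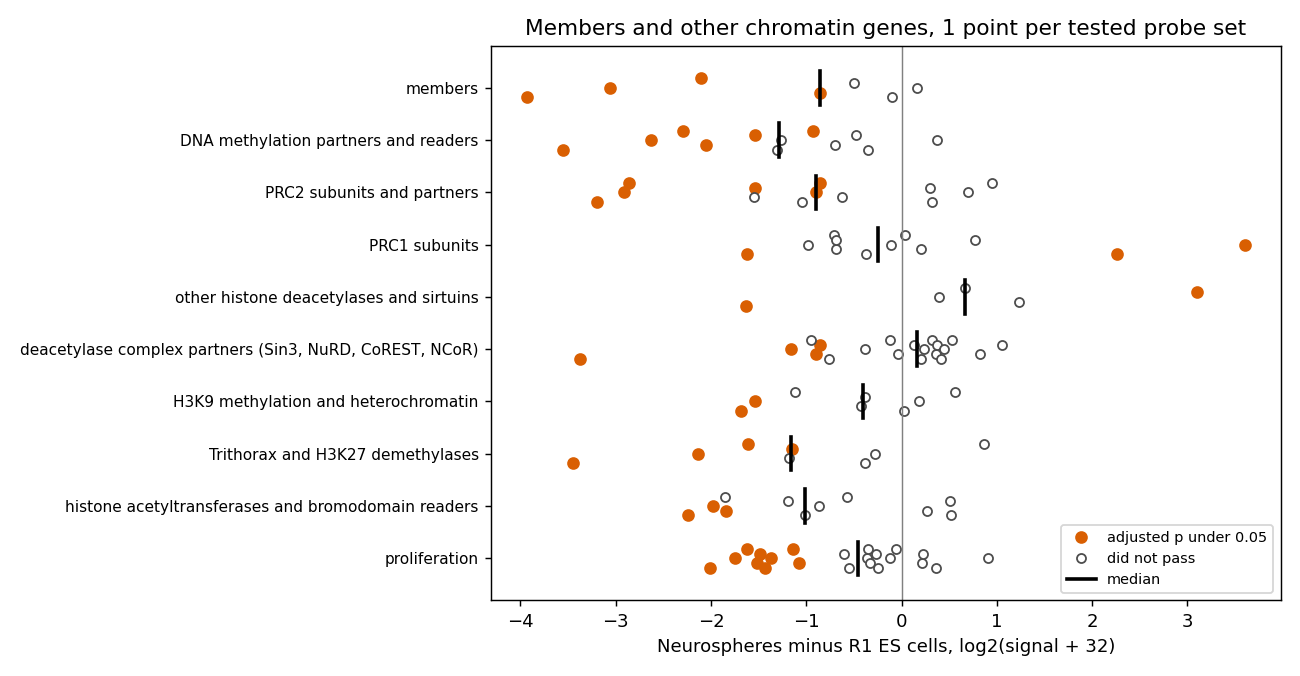
Difference between neurospheres and R1 ES cells on the log2(signal + 32) scale, 1 point per tested probe set, for the members, the 8 lists of chromatin genes and a proliferation list. Filled points passed an adjusted p of 0.05, black bars are medians, and the PRC1 and deacetylase lists hold the only filled points to the right of 0.

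Among partners and readers of DNA methylation, 6 of 12 tested probe sets were called lower and 0 higher, with a median of -1.29. The shares over all tested probe sets were 11.6% and 8.09%. Zfp57, the zinc finger protein that protects methylation of imprinted regions, had signals of 681, 1996 and 1137 on the aggregation, suspension and adherent arrays and 69.4 in neurospheres. It fell by 3.55 on the log2 scale (SE 0.49, limma adjusted p = 1.38e-05). Hells, a chromatin remodeller needed for DNA methylation of repeats, fell by 2.05 (SE 0.37, adjusted p = 3.34e-04). Both calls ended in the fit without an intensity trend, with adjusted p-values of 0.0562 and 0.0580.

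Uhrf1, which brings Dnmt1 to newly replicated DNA, had signals of 4430, 2356 and 3975 on the aggregation, suspension and adherent arrays and 1862 in neurospheres. Its difference of -0.93 was called (limma, adjusted p = 0.0401), but the call ended in 9 of 14 alternatives, among them those that left out the aggregation array (-0.71), the suspension array (-1.16) or the adherent array (-0.79). The other calls were the stress gene Gadd45a (-2.63, kept in all 14), the corepressor Trim28 (-1.53) and 1 probe set of Gadd45b (-2.29), whose other probe set was not called (-0.48). The Trim28 call ended with the aggregation array left out (-1.49) and with the suspension array left out (-1.58), and the Gadd45b call did likewise (-2.14 and -2.44). Pcna, which binds Dnmt1 at the replication fork, was at -0.36 (adjusted p = 0.368).

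Of the PRC2 subunits and partners other than Ezh2 and Eed, 6 of 13 tested probe sets were called lower and 0 higher. Their median was -0.89, and over all tested probe sets 11.6% were called lower and 8.09% higher. Jarid2, which helps to bring PRC2 to its targets, had signals of 5821, 9302 and 8463 on the aggregation, suspension and adherent arrays and 1023 in neurospheres. It fell by 2.91 on the log2 scale (SE 0.29, limma adjusted p = 1.51e-07). Mtf2, another accessory subunit, fell by 3.20 and 2.86 on its 2 called probe sets, and the third Mtf2 probe set was at -1.55 and was not called. The Jarid2 call and both Mtf2 calls were kept in every alternative in which they were tested.

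Suz12, the third core subunit beside Ezh2 and Eed, was lower by 1.54 on 1 probe set (limma, adjusted p = 0.00826), a call that ended without the suspension array (-1.40) and in the fit without an intensity trend. Its other probe set, at -1.05, was not called (adjusted p = 0.0798). Rbbp4 and Rbbp7, histone binding subunits shared by PRC2 and the deacetylase complexes, were called at -0.89 and -0.85. Both calls ended in 7 of 14 alternatives, among them those that left out the adherent array (-0.58 for Rbbp4 and -0.45 for Rbbp7), the aggregation array (-0.79 and -0.82) or the suspension array (-0.997 for Rbbp4 and -0.89 for Rbbp7). Ezh1, the relative of Ezh2, was at 0.32 (adjusted p = 0.738).

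In the PRC1 list 2 of 12 tested probe sets were called higher and 1 lower, with a median of -0.24, beside 8.09% higher and 11.6% lower over all tested probe sets. Of these 3 calls, that of Phc2 alone was kept in all alternatives. Phc2, a paralogue of Phc1, had signals of 61.5, 65.9 and 26.1 on the aggregation, suspension and adherent arrays and 872 in neurospheres. Its R1 signals were near the 10th percentile of those arrays (17.4 to 33.7), and it rose by 3.60 on the log2 scale (SE 0.89, limma adjusted p = 0.00539), a call kept in all 14 alternatives. Phc2 passed the signal filter through the neurosphere array alone, where it was high. With that limit, Phc1 and Phc2 were called in opposite directions.

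Bmi1, a PRC1 ring finger subunit, had signals of 329, 83.1 and 237 on the aggregation, suspension and adherent arrays and 1093 in neurospheres. The rise of 2.26 (SE 0.63, limma adjusted p = 0.0131) ended in 3 of 14 alternatives: no filter on low signal, no intensity trend and the adherent array alone as the reference. Pcgf2, the Bmi1 relative also known as Mel18, had signals of 641, 1260 and 536 on 1 probe set and 205 in neurospheres. That probe set was called lower, by -1.62 (SE 0.46, adjusted p = 0.0142), a call that ended in 4 of 14 alternatives, among them the fit that left out the suspension array (-1.39), and the other Pcgf2 probe set was at -0.11 (adjusted p = 0.890). The 3 probe sets of Rnf2, the ubiquitin ligase of PRC1, were at -0.98, -0.38 and 0.20 and were not called.

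**Figure D4:**
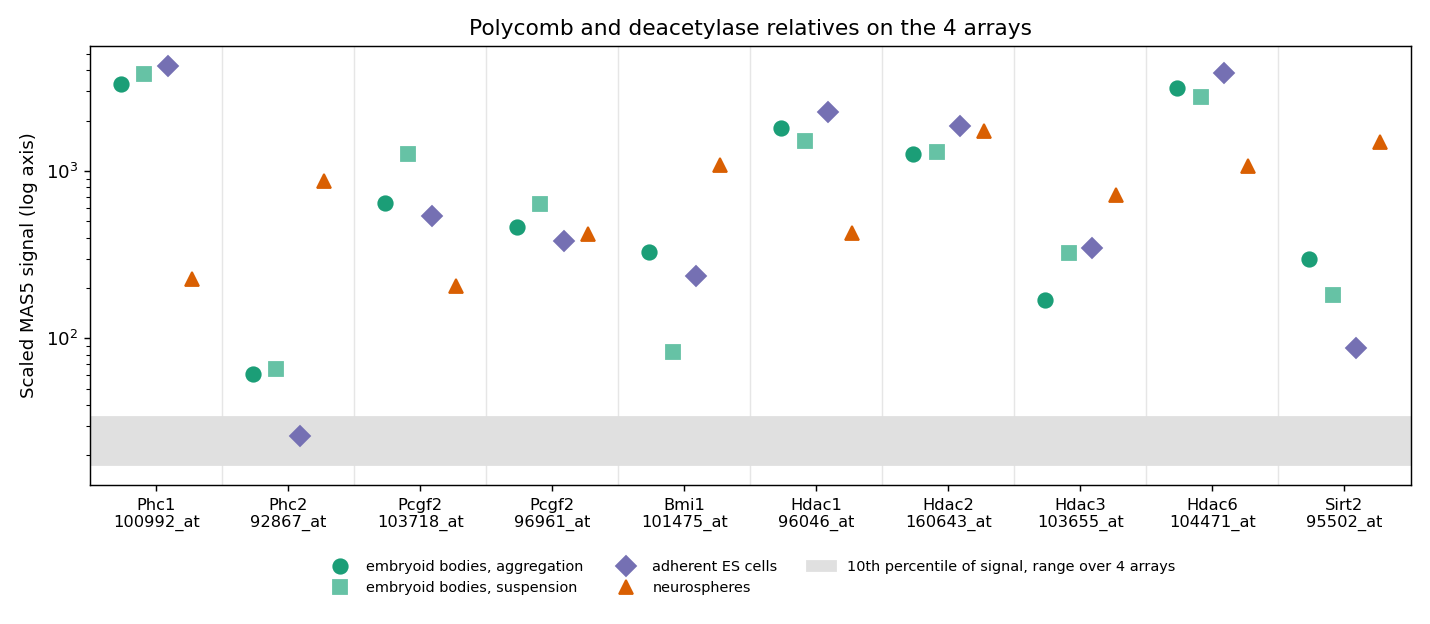
Scaled MAS5 signal (log axis) of Phc1, Hdac1, Hdac2 and related Polycomb and deacetylase genes on the 4 arrays, genes picked after their values were seen. Neurosphere triangles lie below the R1 points for Phc1, Hdac1, Hdac6 and 1 Pcgf2 probe set and above them for Phc2, Bmi1, Hdac3 and Sirt2. Levels are not comparable between probe sets.

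Of the other histone deacetylases and sirtuins, 5 of 15 genes were tested, with 1 called higher, 1 lower and a median of 0.67. The shares over all tested probe sets were 8.09% higher and 11.6% lower. Hdac6, a mainly cytoplasmic deacetylase that acts on tubulin, had signals of 3145, 2778 and 3847 on the aggregation, suspension and adherent arrays and 1069 in neurospheres, a fall of 1.63 (SE 0.28, limma adjusted p = 1.99e-04). The call ended in the fit without an intensity trend (adjusted p = 0.0846). Sirt2, a tubulin deacetylase abundant in the oligodendrocyte lineage, had signals of 299, 182 and 87.3 in the same order and 1496 in neurospheres. It rose by 3.10 (SE 0.57, adjusted p = 3.61e-04), a call kept in all 14 alternatives. The oligodendrocyte sum was also highest in neurospheres, with 3 of 6 tested probe sets called higher. Of those 3, the ones of Nkx2-2 and Pdgfra were tested through the neurosphere array alone. A link between that sum and Sirt2 was not tested. Hdac3, the deacetylase of the NCoR complex, had 170, 322 and 348 against 714 in neurospheres and was not called (1.23 ± 0.54 (SE), adjusted p = 0.122).

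Among partners of the deacetylases in the Sin3, NuRD, CoREST and NCoR complexes, the median was 0.17. Over all tested probe sets 11.6% were called lower and 8.09% higher, and on this list 4 of 20 tested ones lower and 0 higher. The call with the largest difference was Rest, the repressor of neuronal genes that recruits CoREST and Hdac1, with signals of 2535, 1888 and 3604 on the aggregation, suspension and adherent arrays and 242 in neurospheres. It fell by 3.37 (SE 0.32, limma adjusted p = 7.56e-08), a call kept in all 14 alternatives. Rbbp4 and Rbbp7 are on this list too, and the fourth call was 1 probe set of the NuRD subunit Gatad2a (-1.16), whose other tested probe sets were at 1.05 and 0.41 and were not called. The Gatad2a call ended with either embryoid body array left out (-1.19 for aggregation and -1.13 for suspension). Sin3a was at -0.95 and missed the threshold (adjusted p = 0.0554), a call it did pass when control probe sets were kept in the scaling.

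The marks that oppose or accompany these systems were also counted. Trithorax genes and H3K27 demethylases had a median of -1.16, and over all tested probe sets 11.6% were called lower and 8.09% higher. On this list 4 of 8 tested probe sets were called lower and 0 higher. These were Ash2l (-3.45), a core subunit of the H3K4 methyltransferases that was called in all 14 alternatives, the H3K27 demethylase Kdm6a (-2.13), the H3K4 demethylase Kdm5b (-1.61) and Wdr5 (-1.15). The Kdm5b call ended without the aggregation array (-1.64), the suspension array (-1.58) or the adherent array (-1.45), and the Wdr5 call without the aggregation array (-1.11) or the suspension array (-1.19). Both calls and that of Kdm6a ended without an intensity trend.

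For histone acetyltransferases and bromodomain readers, 3 of 11 tested probe sets were called lower and 0 higher, with a median of -1.01. They were Kat2b (-2.24), kept in all 14 alternatives, Kat7 (-1.98, with its other probe set at 0.50) and Hat1 (-1.85). For H3K9 methylation and heterochromatin 2 of 8 were called lower and 0 higher, with a median of -0.41. These 2 were the H3K9 demethylase Kdm3a (-1.69) and Trim28. Both list counts stand beside 11.6% lower and 8.09% higher over all tested probe sets. The calls of Kat7, Hat1 and Kdm3a ended in the fit without an intensity trend.

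Because Dnmt1 and Uhrf1 act at the replication fork, a proliferation list was set beside them. In neurospheres 9 of its 22 tested probe sets were called lower and 0 higher, with a median of -0.46, beside 11.6% lower and 8.09% higher over all tested probe sets. Mcm2, a subunit of the replicative helicase, was at -2.01. Cdk1 was at -0.06 and the probe sets of Mki67 at -0.25 and 0.36, and those of Cdk1 and Mki67 were not called. These genes were picked from the list after their values were seen. The part of proliferation in the differences above was not tested.

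For the 3 members with the widest range over the arrays, the most similar probe sets of other genes were found by Euclidean distance between centred log2 values over the 4 arrays. For Phc1 they were those of Klf2 at 0.215, Apoc1 at 0.247 and Tgif1 at 0.271, where the median distance of all tested probe sets was 3.52. For Eed they were F11r at 0.189, Bms1 at 0.221 and Inpp5d at 0.251, with a median of 2.84. For Hdac1 they were Ccdc58 at 0.0876, Nasp at 0.104 and Nipsnap1 at 0.117, with a median of 2.05. The nearest probe sets were picked as the smallest of these distances, so they lie below the median by construction. The medians give the scale alone. The distances describe these 4 arrays alone.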

How the data were processed

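The deposited table holds MAS5 signal intensity per probe set on a linear scale, which the authors computed from their scans, per the submitters' processing notes. Not given in the sources used here are the MAS5 version and settings. Probe sets with 1 gene symbol in the platform annotation (10833 of 12422) were named, 66 controls were left out, and 396 with several genes and 1193 with none stayed unnamed. Signals were scaled to give every array a trimmed mean of 500 (2% left out at each end) over probe sets without controls. This scaling was settled after values with controls in the mean had been seen, and those are given as an alternative. limma 3.58.1 in R 4.3.3 was fitted to log2(signal + 32) of the 4 arrays in 3 groups, with an intensity trend, 1 residual and 20.5 prior degrees of freedom. The code was tested on simulated data. No detection calls were used, and the number of arrays limits the precision.

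The members and lists were chosen with earlier results of these data known, and neither their counts nor medians were tested. Named were all members, up to 4 called probe sets per list by size, and 3 nearest probe sets for each of 3 members. Uhrf1, Pcna, Trim28, Rbbp4, Rbbp7, Ezh1, Rnf2, Hdac3, Sin3a, second probe sets and the proliferation genes were added after their values were seen. Several short promoter motifs were looked at before only CG dinucleotides were reported.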

Additional observations from a re-analysis of the deposited data

How the results depend on the processing

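No paired analysis was possible, because the neurosphere and adherent groups had 1 array each. Phc1 and Eed were called in all 14 alternatives, Hdac1 in 13 and Dnmt1 in 7, and no member call turned direction. Without an intensity trend, the called-lower counts in neurospheres were 2 in place of 4 for members and 7 in place of 24 for the chromatin lists, and 237 lower and 218 higher in place of 935 and 650 for all tested probe sets. When 1 array was left out, the list count ranged from 14 to 20, with 14 without the suspension array, 16 without the aggregation array and 20 without the adherent array. The member count was 3, 3 and 4 in that order. The fits without an embryoid body array also merge the R1 groups, and for all tested probe sets they gave 315 higher and 460 lower with aggregation left out and 378 and 515 with suspension left out. Between embryoid bodies and adherent cells, scaling to one median gave 9 list probe sets called lower in place of 0. For all tested probe sets, no filter and no trend each gave 0 calls in either direction there, and quantile normalization gave 16 higher and 2 lower. The causes were not tested. With control probe sets kept in the trimmed mean, an alternative added after seeing the data, 673 higher and 969 lower were called in neurospheres and 24 higher and 15 lower in embryoid bodies, members kept 4 and lists had 25. The fit without the adherent array was also added after seeing the data. Weak signals could not be told from background without detection calls. This bears on Dnmt3a and on the neurosphere signal of Phc1, and so on the size of the Phc1 fold difference.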
